A study of Mus musculus and Homo sapiens
Mus musculus with 16 samples.

Results

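The 3 genes described here encode the COUP-TF and tailless nuclear receptors of the forebrain, Nr2f1 (COUP-TFI), Nr2f2 (COUP-TFII) and Nr2e1 (tailless, also called Tlx). They were followed through H3K4me3 PLAC-seq, which ligates neighbouring DNA ends in fixed nuclei and enriches the products with an antibody to a histone mark of promoters. A contact was counted for a gene where either 10 kb bin of a deposited interaction overlapped the gene body on mm10, and 111 of 58543 listed bin pairs met this rule. The tissue was whole mouse fetal forebrain at the embryonic stages E16.5 (2 libraries) and E12.5 (2 libraries). No treatment or genotype is named for either stage, and 12 other samples of the series were not analysed here. The strain of the fetuses is not stated, since the extraction text of the labels describes adult male C57BL/6J cortex. Nothing in the labels says that the 2 libraries of a stage came from separate litters, so the p-values below measure the spread between libraries, which may be technical. In a bulk sample, fewer cells of a type and weaker contact in each cell cannot be told apart.

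Nuclear receptors of this group are transcription factors with a zinc-finger DNA-binding domain and no established natural hormone. In the mouse forebrain, Nr2f1 is graded across the cortical progenitor zone and patterns cortical areas, and Nr2f2 marks the caudal ganglionic eminence and the interneurons born there. Nr2e1 acts mainly as a repressor and keeps neural stem cells dividing.

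The bases just before the start of each gene are shown because they lie in its start bin, an anchor of its contacts. RefSeq gives 2 starts for Nr2f1, and the window of the one at the 5′ end of the gene is shown. These are the 250 bases upstream of the start in RefSeq on GRCm38.p6, at chr13:78198874-78199123 for Nr2f1, chr7:70366747-70366996 for Nr2f2 and chr10:42583591-42583840 for Nr2e1, all on the minus strand and 5′ to 3′. Capitals mark GATC, the sequence cut by MboI, the enzyme used to digest the crosslinked chromatin.
Nr2f1: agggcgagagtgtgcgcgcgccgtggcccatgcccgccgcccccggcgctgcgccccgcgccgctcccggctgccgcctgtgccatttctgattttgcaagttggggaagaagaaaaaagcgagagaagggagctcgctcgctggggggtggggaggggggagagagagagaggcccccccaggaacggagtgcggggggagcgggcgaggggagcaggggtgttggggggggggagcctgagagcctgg
Nr2f2: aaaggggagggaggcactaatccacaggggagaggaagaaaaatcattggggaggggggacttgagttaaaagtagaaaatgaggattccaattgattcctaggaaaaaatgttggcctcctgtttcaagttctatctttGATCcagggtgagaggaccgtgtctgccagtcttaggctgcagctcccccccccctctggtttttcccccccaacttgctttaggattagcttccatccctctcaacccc
Nr2e1: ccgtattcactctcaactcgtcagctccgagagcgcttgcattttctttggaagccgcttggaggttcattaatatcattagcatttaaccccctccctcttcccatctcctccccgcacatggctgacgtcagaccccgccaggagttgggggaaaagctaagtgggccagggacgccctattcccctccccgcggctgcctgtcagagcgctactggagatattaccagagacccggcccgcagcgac
The Nr2f1 window held 72% G and C with 22 CpG, the Nr2e1 window 58% with 15 CpG, and the Nr2f2 window 50% with 1 CpG. The median of 32851 RefSeq windows of this length was 52.4% with 6 CpG, so the Nr2f1 and Nr2e1 windows were richer in CpG than the median and the Nr2f2 window poorer. Only the Nr2f2 window held GATC, 110 bases before the start, a sequence present in 41.9% of all windows. The half-sites AGGTCA, bound by many nuclear receptors, and AAGTCA, bound by the tailless receptor, were searched on both strands. Neither occurred in these 3 windows, against 14.0% and 13.1% of all windows.

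The E16.5 libraries listed 35291 and 36794 interactions, against 18413 and 16075 in the E12.5 libraries, so the later lists were 2.09 times as long. An exact permutation test over libraries gave p = 0.333 for that difference, the smallest it can give with 2 libraries a stage. They rested on 892987 and 911710 read pairs at E16.5 and on 446855 and 405491 at E12.5, with a median of 19 to 20 read pairs per interaction. The sequencing depth is unknown. An unlisted bin pair did not pass the authors' threshold, which does not show that it was uncontacted. All 8 forebrain marker genes had listed interactions in every library, which summed to 316 and 299 at E16.5 against 334 and 346 at E12.5. In the test of interaction number described below, in which 3.49% of all genes were called lower at E16.5, 5 of these 8 were called lower, with a median log2 change of -1.01. Markers of hindbrain, midbrain and spinal cord were listed too, and summed to 64 and 37 interactions at E16.5 against 135 and 85 at E12.5. Of 8 such markers 7 could be tested and 5 were called lower at E16.5, and En2 was at 0 in every library. Hoxb3 alone gave 21 and 7 interactions at E16.5 against 62 and 38 at E12.5. In all these marker sums an interaction that touched several genes was counted for each. Meningeal and mesenchymal markers summed to 27 and 11 against 21 and 20, with Twist1 and Prrx1 at 0 throughout, and 0 of the 3 tested were called. Endothelial and erythroid markers on autosomes summed to 1 and 0 against 0 and 0.

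Nr2f1 spans chr13:78188971-78198873 on the minus strand and lies in 2 bins, which also hold the long non-coding RNA genes Gm38604, 3110006O06Rik and A830082K12Rik. Contacts of Nr2f1 and of these genes cannot be told apart. Nr2f1 had 26 and 21 listed interactions at E16.5, against 26 and 28 at E12.5. The E16.5 numbers did not exceed the E12.5 ones, although the E16.5 lists were longer. Per 10000 interactions in the same list, Nr2f1 had 7.37 and 5.71 at E16.5, against 14.1 and 17.4 at E12.5. Its interactions held 1050 and 683 read pairs per 1000000 listed at E16.5, against 1947 and 1864 at E12.5, so on these relative scales the stages did not overlap. Of all genes tested, 28.8% lay lower at E16.5 without overlap per 10000 listed interactions and 25.4% per 1000000 listed read pairs.

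Nr2f2 spans chr7:70351946-70366746 on the minus strand and shares its 2 bins with the long non-coding RNA gene B130024G19Rik. Contacts of Nr2f2 and of B130024G19Rik in shared bins cannot be told apart. Nr2f2 had 29 and 14 listed interactions at E16.5, against 29 and 36 at E12.5. Replicate 2 of E16.5 stood lowest, and replicate 1 had the same number as replicate 1 of E12.5. Per 10000 listed, Nr2f2 had 8.22 and 3.80 at E16.5, against 15.7 and 22.4 at E12.5. Its share of listed read pairs was 684 and 254 per 1000000 at E16.5, against 1757 and 2232 at E12.5.

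Nr2e1 spans chr10:42561963-42583590 on the minus strand and lies in 3 bins, together with the long non-coding RNA gene Gm38491. The start bin of Nr2e1 also holds the start of Gm38491, so contacts of these genes from that bin cannot be told apart. Nr2e1 had 14 and 13 listed interactions at E16.5, against 10 and 12 at E12.5, and was the only one of the 3 genes with more in both E16.5 libraries. Such an increase was common, since 64.5% of the 4036 genes tested had more listed interactions in both E16.5 libraries. Fewer in both were found for 3.39% of genes and for none of these 3. Per 10000 listed, Nr2e1 had 3.97 and 3.53 at E16.5, against 5.43 and 7.47 at E12.5. Its share of listed read pairs was 628 and 618 per 1000000 at E16.5, against 1553 and 2153 at E12.5.

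**Figure D1:**
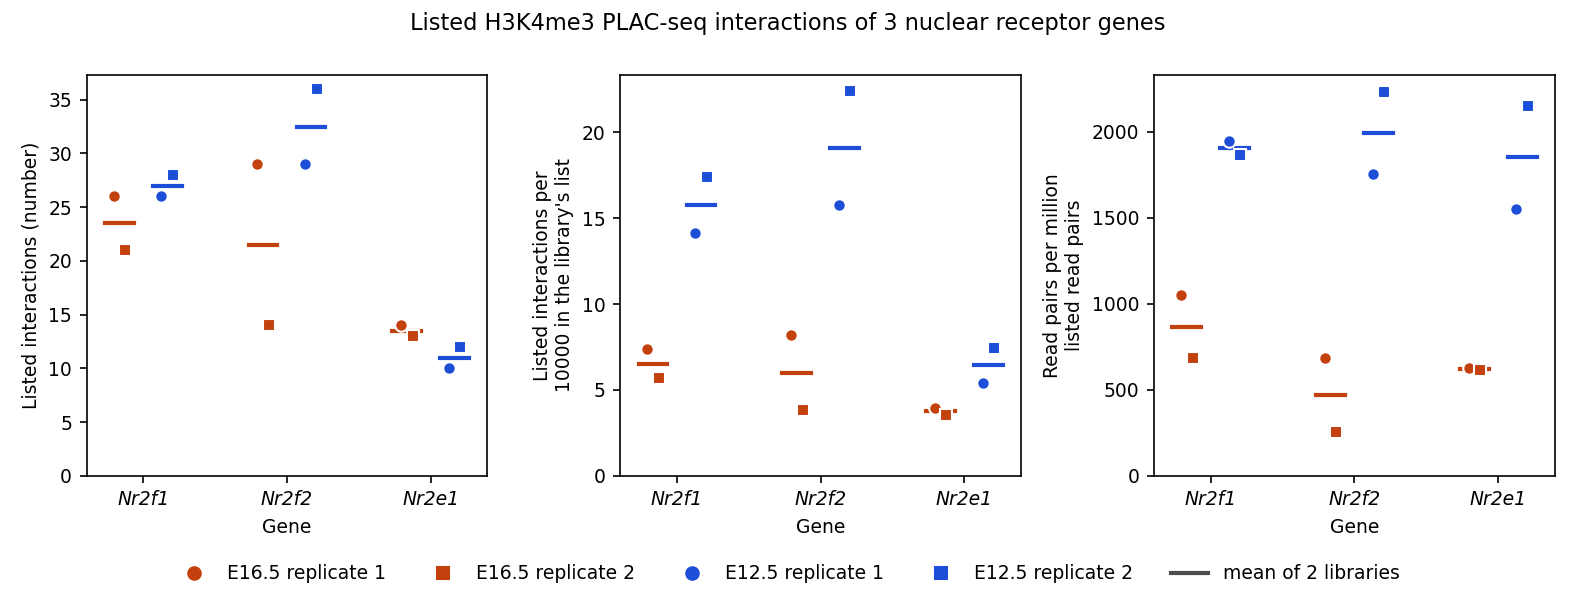
Listed interactions of Nr2f1, Nr2f2 and Nr2e1 as a number (left), per 10000 interactions of the library's list (middle) and as read pairs per 1000000 listed read pairs (right), with 1 point per library and bars for stage means; E16.5 is orange and E12.5 blue. The numbers of Nr2f1 and Nr2f2 touch or overlap between stages, while on both relative scales every E16.5 point lies below every E12.5 point of the same gene, as for 28.8% and 25.4% of all genes tested.

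The number of interactions of each gene, relative to all genes, was compared with edgeR's quasi-likelihood test with TMM scaling over 4036 protein-coding genes, with Benjamini-Hochberg adjustment. Nr2f1 was lower at E16.5 by a log2 change of -1.04 (SE 0.26, adjusted p = 0.0167), a 2.06-fold lower number after TMM scaling. Nr2f2 was lower by a log2 change of -1.43 (SE 0.31, adjusted p = 0.00780), a 2.70-fold lower number after TMM scaling. Nr2e1 had a log2 change of -0.54 (SE 0.34, adjusted p = 0.418) and did not pass the test. Of all genes tested 3.49% were called lower and 11.0% higher, and the median log2 change was 0.25. The calls for Nr2f1 and Nr2f2 are falls in share, since their listed numbers did not grow with the longer E16.5 lists. Neighbouring bin pairs are not independent counts, and with each of the authors' clusters of adjacent pairs counted once, neither gene passed (adjusted p = 0.716 for Nr2f1 and 0.520 for Nr2f2). The Nr2f1 call was also lost on leaving out E12.5 replicate 1 (adjusted p = 0.240), E12.5 replicate 2 (0.120) or E16.5 replicate 2 (0.0802), and the Nr2f2 call on leaving out E12.5 replicate 1 (0.261). Forebrain markers (5 of 8 tested called lower) and hindbrain, midbrain and spinal cord markers (5 of 7) mostly moved the same way as Nr2f1 and Nr2f2. Emx1 of the forebrain set went the other way (log2 change 1.18) and was not called. The 3 tested meningeal and mesenchymal markers all lay below 0 too (median log2 change -1.63), with 0 called. The part of these marker sets in the changes of Nr2f1 and Nr2f2 was not tested.

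Among genes ranked by number within a library, Nr2f1 stood above 92.0% and 87.8% of tested genes at E16.5, against 97.0% and 97.7% at E12.5. Nr2f2 stood above 93.5% and 75.4% at E16.5, against 97.6% and 98.7% at E12.5. Nr2e1 stood above 78.2% and 72.9% at E16.5, against 83.3% and 88.9% at E12.5. At both stages, then, the 3 genes were among the more connected of the genes tested. They were chosen with earlier results of these data known, so these high ranks are a description and not a test. The E16.5 ranks of each lay below its E12.5 ranks without overlap, as did those of 30.2% of all genes tested.

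The distance from gene to partner overlapped between stages for each gene. The median distance of Nr2f1 interactions was 315 and 320 kb at E16.5, against 315 and 320 kb at E12.5. For Nr2e1 it was 245 and 250 kb at E16.5, against 255 and 235 kb at E12.5. For Nr2f2 it was 540 and 750 kb at E16.5, against 540 and 540 kb at E12.5, and the value of 750 kb came from the library that listed only 14 interactions. Exact two-sided permutation tests over the 6 assignments of libraries gave p = 1 for each gene, also after adjustment over the 3 genes, where the smallest possible p is 0.333.

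Nr2f1 contacted regions on both sides of the gene, with most listed interactions downstream of its 3′ end. Downstream contacts numbered 20 and 16 at E16.5 and 20 and 20 at E12.5, against upstream contacts of 6 and 5 at E16.5 and 6 and 8 at E12.5. The region with most bin pairs, chr13:77850001-77920000, lies inside Fam172a, the protein-coding neighbour downstream, and gave 9 and 8 interactions at E16.5 and 10 and 10 at E12.5. A second stretch inside Fam172a, chr13:77960001-78010000, gave 6 and 4 interactions at E16.5 and 5 and 5 at E12.5. The region at chr13:77380001-77410000, inside the gene 2210408I21Rik, gave 5 and 4 at E16.5 and 5 and 5 at E12.5. Upstream, chr13:78560001-78590000 in the long non-coding RNA gene Gm32067 gave 2 and 2 at E16.5 and 3 and 2 at E12.5. A further upstream region at chr13:79020001-79040000, with no gene in the RefSeq table, gave 2 and 1 at E16.5 and 2 and 1 at E12.5. These 5 regions were listed in all 4 libraries, and the other 7 partner regions of Nr2f1 were single bins or short stretches listed in 1 to 3 libraries.

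The strongest Nr2f1 contact joined its start bin, chr13:78190001-78200000, to chr13:77890001-77900000 in Fam172a, 300 kb away. It held 122 and 81 read pairs at E16.5, against 92 and 89 at E12.5, so the stages overlapped. It ranked 2 of 584 and 4 of 563 among listed pairs of that distance at E16.5, against 2 of 304 and 2 of 242 at E12.5. Its ratio of observed to the authors' expected read pairs was 5.82 and 5.14 at E16.5, against 5.30 and 5.40 at E12.5. In edgeR's test over bin pairs the log2 change was -0.20 (SE 0.21, adjusted p = 0.608). The adjacent contact from the same start bin to chr13:77880001-77890000, 310 kb away, held 42 and 45 read pairs at E16.5, against 69 and 46 at E12.5. It was called lower, with a log2 change of -0.76 (SE 0.24, adjusted p = 0.0312). The call was lost without E12.5 replicate 1 (log2 change -0.47, adjusted p = 0.487) and without E16.5 replicate 1 (-0.66, 0.141). The next strongest contacts did not pass. The gene-body bin contacted chr13:77890001-77900000 with 83 and 45 read pairs at E16.5, against 61 and 48 at E12.5 (log2 change -0.14, adjusted p = 0.794, edgeR). The start bin contacted chr13:77980001-77990000, also in Fam172a, with 64 and 48 at E16.5, against 60 and 42 at E12.5 (log2 change -0.23, adjusted p = 0.612, edgeR).

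Nr2f2 looked almost wholly to one side. Of its listed interactions 27 and 12 at E16.5 and 27 and 35 at E12.5 lay downstream, against 2 and 2 at E16.5 and 2 and 1 at E12.5 upstream. No protein-coding gene of the RefSeq table overlapped an Nr2f2 partner region. The farthest main region, chr7:69470001-69530000, holds the starts of the long non-coding RNA genes Gm38584 and 4930402F11Rik and gave 6 and 6 interactions at E16.5 and 7 and 5 at E12.5. The region chr7:69550001-69590000 gave 4 and 1 at E16.5 and 4 and 6 at E12.5, and chr7:69790001-69830000, which holds the start of the long non-coding RNA gene Gm35209, gave 4 and 1 at E16.5 and 5 and 7 at E12.5. The region chr7:69970001-70000000, with no gene in the table, gave 4 and 1 at E16.5 and 1 and 2 at E12.5, with 78 and 19 read pairs at E16.5 and 27 and 38 at E12.5. Nearer the gene, chr7:70080001-70130000, with no gene in the table, gave 7 and 3 at E16.5 and 6 and 9 at E12.5. The nearest region, chr7:70160001-70180000 in the long non-coding RNA gene Gm29683, gave 2 and 0 at E16.5 and 4 and 4 at E12.5. At 4 of these 6 regions E16.5 replicate 2 had the fewest interactions of the 4 libraries, while at chr7:69970001-70000000 the most were in E16.5 replicate 1.

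The Nr2f2 contact with most read pairs among those in all 4 libraries joined the gene-body bin chr7:70350001-70360000 to chr7:69490001-69500000, 860 kb away. It held 40 and 34 read pairs at E16.5, against 49 and 46 at E12.5, and was called lower with a log2 change of -0.72 (adjusted p = 0.0469, edgeR). Its observed over expected ratio was 11.9 and 11.7 at E16.5, against 11.8 and 11.5 at E12.5, values that overlapped between stages. Among listed pairs of its distance it ranked 8 of 143 and 6 of 131 at E16.5, and 1 of 70 (tied) and 1 of 56 at E12.5. The call was lost on leaving out any of the 4 libraries (adjusted p = 0.101 to 0.219, edgeR). The other called Nr2f2 contacts joined the start bin to the same distant bin (38 and 21 read pairs at E16.5, against 45 and 35 at E12.5, adjusted p = 0.0431) and both gene bins to the region 230 to 270 kb downstream. There, the contact of the start bin with chr7:70110001-70120000 held 28 and 18 read pairs at E16.5, against 41 and 39 at E12.5, with a log2 change of -1.16 (SE 0.27, adjusted p = 0.00271). The gene-body bin contacted the same partner with 47 and 21 read pairs at E16.5, against 48 and 52 at E12.5 (log2 change -0.92, adjusted p = 0.0149). Its contact with chr7:70120001-70130000 held 27 and 23 at E16.5, against 42 and 36 at E12.5 (log2 change -1.001, adjusted p = 0.00860). Without E16.5 replicate 2, each of these 4 contacts lost its call: the log2 change was -0.48 (adjusted p = 0.418) at 870 kb, -0.92 (0.0730) at 250 kb, -0.49 (0.343) at 240 kb and -0.93 (0.0726) at 230 kb. The 240 kb contact had -1.55 without E16.5 replicate 1 and lost its call without E12.5 replicate 2 (0.125), and the 870 kb contact had -1.23 without E16.5 replicate 1. The 870 kb contact also lost its call without E12.5 replicate 1 (0.343) and replicate 2 (0.0823), and the 230 kb contact without E12.5 replicate 1 (0.119).

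Nr2e1 had the most compact pattern. All its listed interactions lay within 290 kb of the gene, in 2 regions downstream and 1 upstream. The downstream region chr10:42290001-42380000, which partly overlaps Afg1l, a gene for a mitochondrial ATPase, gave 12 and 11 interactions at E16.5, against 8 and 9 at E12.5. The bin chr10:42410001-42420000, also in Afg1l, gave 1 interaction with 39 read pairs in E16.5 replicate 1 alone. Upstream, chr10:42620001-42640000 holds no gene in the table and gave 1 and 2 interactions at E16.5, against 2 and 3 at E12.5. These few upstream interactions carried 218 and 272 read pairs at E16.5, against 443 and 577 at E12.5.

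Most of the upstream signal was the contact of the Nr2e1 start bin, chr10:42580001-42590000, with chr10:42630001-42640000, 50 kb away. It held 218 and 199 read pairs at E16.5, against 347 and 357 at E12.5. The E16.5 libraries had fewer read pairs although their lists held more in all, and the log2 change was -1.12 (SE 0.20, adjusted p = 9.65e-05, edgeR). Among pairs 50 kb apart it ranked 6 of 260 and 4 of 353 at E16.5, against 2 of 187 and 2 of 177 at E12.5. The authors' expected count for this pair was also lower, at 74.1 and 61.8 at E16.5 against 103 and 91.9 at E12.5. The ratio of observed to expected was 2.94 and 3.22 at E16.5, against 3.36 and 3.89 at E12.5, and with the expected count as an offset the contact did not pass (adjusted p = 0.585). The other called contact of Nr2e1 joined the start bin to chr10:42310001-42320000 in Afg1l and held 36 and 26 read pairs at E16.5, against 40 and 43 at E12.5 (log2 change -0.78, SE 0.26, adjusted p = 0.0398). That call was lost on leaving out any of the 4 libraries (adjusted p = 0.0511 to 0.269, edgeR), and the 50 kb call on leaving out none of them (2.30e-05 to 0.0203). The contact of the start bin with chr10:42330001-42340000 held 44 and 36 read pairs at E16.5, against 45 and 50 at E12.5, and did not pass (log2 change -0.61, adjusted p = 0.103, edgeR). That with chr10:42300001-42310000 held 34 and 41 at E16.5, against 42 and 44 at E12.5 (log2 change -0.56, adjusted p = 0.157, edgeR). In both, the E16.5 read pairs lay below the E12.5 ones, as for 7.87% of all pairs listed in all 4 libraries. The contact of the start bin with chr10:42320001-42330000 overlapped between stages, with 29 and 37 read pairs at E16.5 against 30 and 28 at E12.5.

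**Figure D2:**
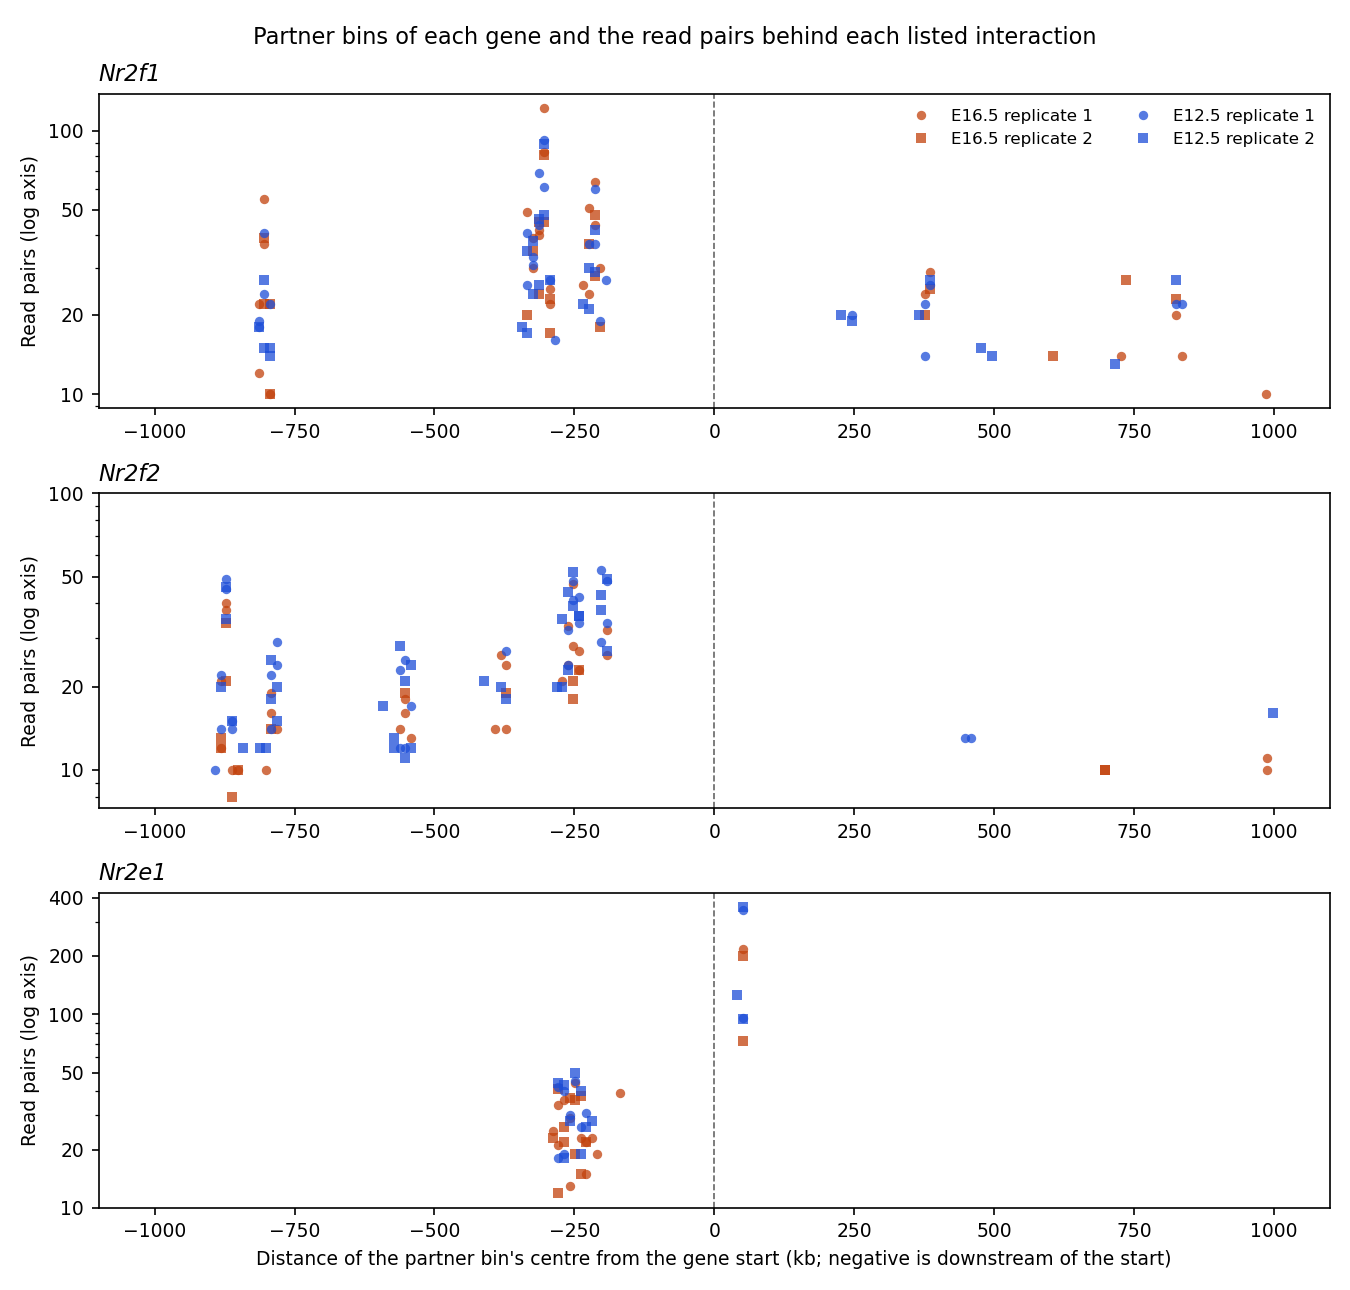
Read pairs (log axis) of every listed interaction of Nr2f1, Nr2f2 and Nr2e1 by the distance of the partner bin's centre from the gene start in kb, with 1 point per interaction and library; E16.5 is orange and E12.5 blue. Nr2f1 shows stretches of partners on both sides, Nr2f2 partners lie almost wholly downstream, and Nr2e1 has a downstream group near 250 kb and an upstream contact at 50 kb with up to 357 read pairs.

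The upstream and downstream partners of Nr2e1 were also listed as contacts of each other. The bin chr10:42630001-42640000 contacted 6 and 6 of the gene's other partner bins at E16.5 and 7 and 6 at E12.5, across the gene and over 280 to 340 kb. Of these partner-to-partner contacts 6 were listed in all 4 libraries and none was called different between stages. The one to chr10:42300001-42310000 held 36 and 21 read pairs at E16.5, against 29 and 27 at E12.5. No such contact was listed between partners of Nr2f1, and between partners of Nr2f2 there were 0 and 0 at E16.5, against 4 and 2 at E12.5. Each of these 6 Nr2f2 contacts was listed in 1 library alone, so none was repeated between the E12.5 libraries. The same upstream bin of Nr2e1 was joined at E16.5 to the start bin of Foxo3, which encodes a forkhead transcription factor, with 36 and 37 read pairs. It was also joined at E16.5 to the start bin of Snx3, which encodes a sorting nexin, with 47 and 45 read pairs. Neither contact was listed at E12.5. Of all 58543 listed bin pairs, 8910 were in both E16.5 libraries and neither E12.5 library, against 1074 the other way.

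Across the 3 genes, 29 bin pairs were listed in all 4 libraries, 14 of Nr2f1, 8 of Nr2f2 and 7 of Nr2e1, and these could be tested for strength. With edgeR on the read pairs of 6875 such bin pairs, 8 of the 29 were called lower at E16.5 (1 of Nr2f1, 5 of Nr2f2 and 2 of Nr2e1), none was called higher and 21 did not pass. Of all 6875 pairs 4.58% were called lower and 5.88% higher. Contacts of a gene share its bins, and many have adjacent partner bins, so the 29 are not independent observations. The 5 called Nr2f2 contacts all reached chr7:69490001-69500000 or chr7:70110001-70130000. The median log2 change was -0.50 for the 29 contacts and -0.01 for all pairs, and 25 of the 29 lay below 0. By gene the median was -0.27 for Nr2f1, -0.76 for Nr2f2 and -0.61 for Nr2e1. For 11 of the 29 the E16.5 read pairs lay below the E12.5 ones with no overlap, where the share of all pairs was 7.87%, and for 1 they lay above, against 50.7% of all pairs.

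The expected counts moved with the observed ones for Nr2f2 and Nr2e1. The authors' expected count was lower at E16.5, with no overlap, for all 7 tested contacts of Nr2e1. The same held for 5 of 8 of Nr2f2 and for 0 of 14 of Nr2f1, against 8.13% of all pairs. All 7 Nr2e1 contacts share the start bin of the gene, and the 8 of Nr2f2 share its 2 bins. The contacts of a gene are therefore not independent observations of the expected count. What that count corrects for is not stated. With it as an offset in the same edgeR fit, none of the 29 was called, the smallest adjusted p was 0.323, and their median log2 change was 0.02. In that fit 2 of the 29 had an unadjusted p under 0.05. Of all 6875 pairs 18 were then called higher (0.262%) and 0 lower (0.00%), with 808 at an unadjusted p under 0.05, and the median log2 change was 0.12. The ratio of observed to expected was lower at E16.5 without overlap for 4 of the 29 and higher without overlap for 3, against 12.8% and 31.2% of all pairs. The falls in read pairs of these contacts thus did not pass as falls in the ratio to the expected count.

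**Figure D3:**
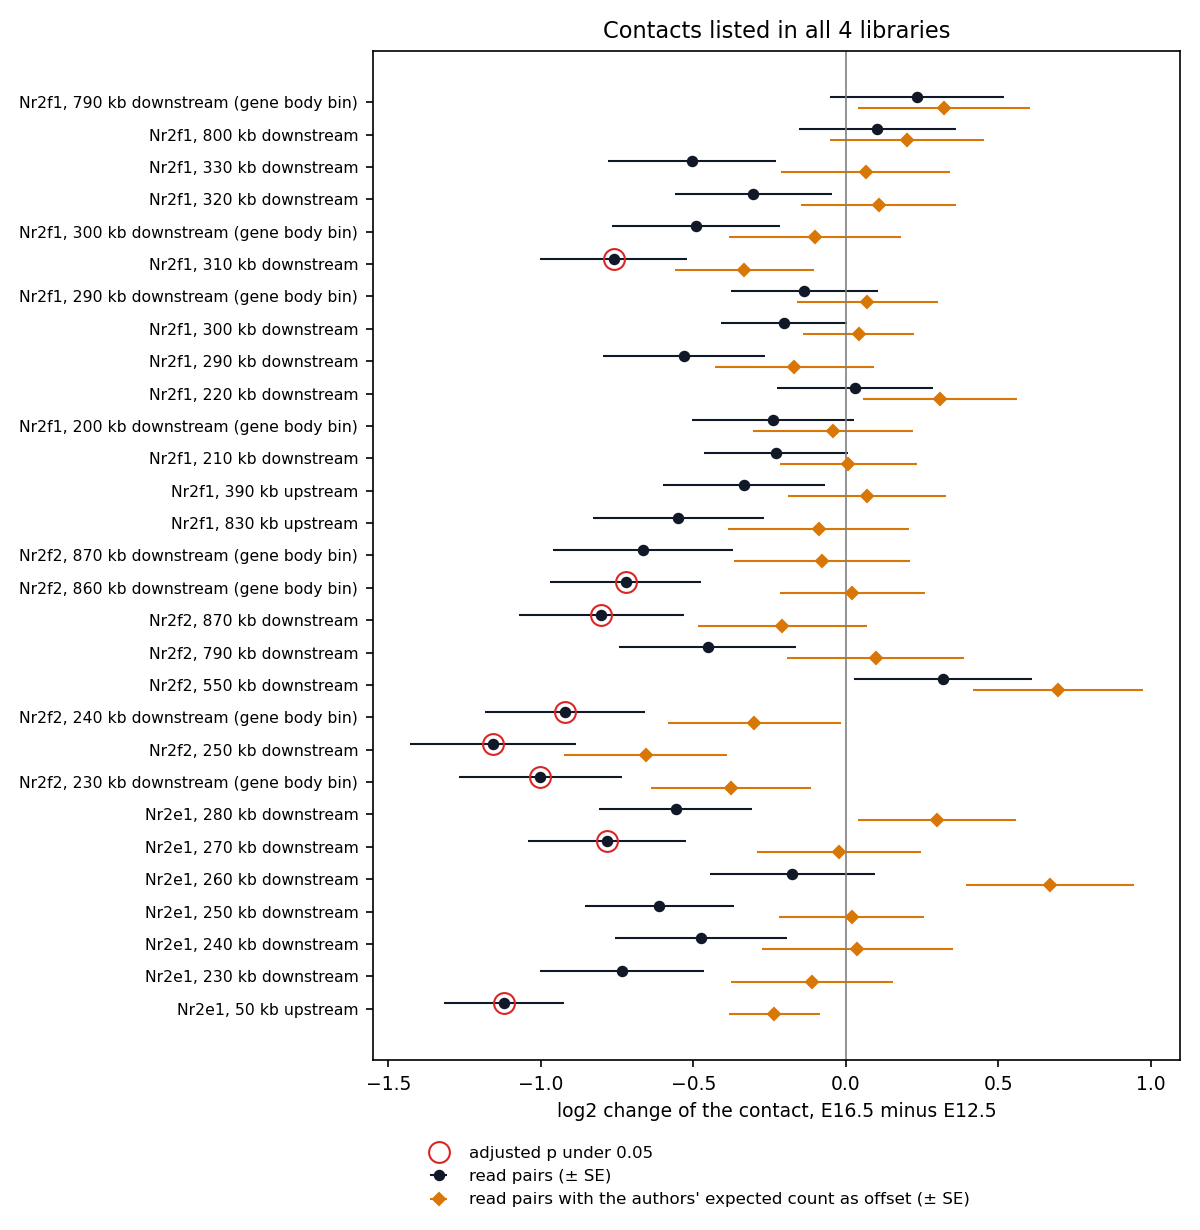
Log2 change (E16.5 minus E12.5, ± SE, 2 libraries a stage) of the 29 contacts listed in all 4 libraries, for read pairs (black) and with the authors' expected count as offset (orange); circles mark an adjusted p under 0.05, and contacts not marked as gene body bin start from the gene's start bin. The 8 circled contacts all lie left of 0 for read pairs, and none is circled with the offset.

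**Figure D4:**
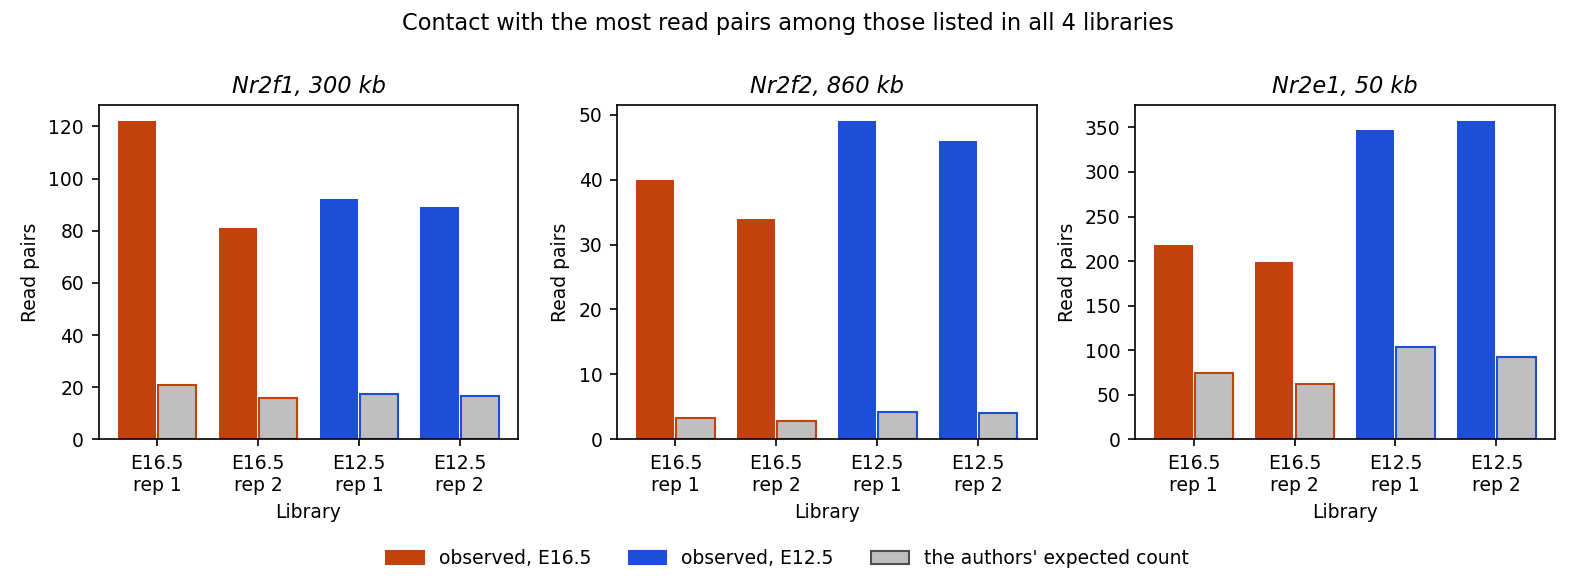
Read pairs (colour) and the authors' expected count (grey) in each library for the contact of each gene with most read pairs among those listed in all 4 libraries. For Nr2e1 both bars are lower in the E16.5 libraries (218 and 199 read pairs) than in the E12.5 libraries (347 and 357), while the 300 kb contact of Nr2f1 overlaps between stages.

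Of the 111 bin pairs of these genes, 59 were listed at both stages. Of the pairs listed in any E16.5 library 74.7% were also listed at E12.5, and of those listed in any E12.5 library 64.8% were also listed at E16.5. For all bin pairs these shares were 34.6% and 71.0%. By gene 23 of 42 Nr2f1 pairs, 24 of 50 Nr2f2 pairs and 12 of 19 Nr2e1 pairs were seen at both stages, and with lists cut to equal length 15, 11 and 9 pairs. Of the 111 pairs 26.1% were in all 4 libraries, against 11.7% of all pairs, and 43 were in 1 library alone.

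Few contacts were listed in both libraries of one stage and neither of the other. At E16.5 there were 3, namely the Nr2f1 gene-body bin with chr13:77900001-77910000 (22 and 17 read pairs), the Nr2f2 gene-body bin with chr7:69510001-69520000 (10 and 10) and the Nr2e1 start bin with chr10:42290001-42300000 (25 and 23). At E12.5 there were 6, of which 4 belonged to Nr2f2 and 2 to Nr2f1. Those of Nr2f2 with most read pairs joined its gene-body bin (53 and 43) and its start bin (29 and 38) to chr7:70160001-70170000, in Gm29683. The other Nr2f2 pairs joined the start bin to chr7:69580001-69590000 (24 and 15) and the gene-body bin to chr7:69500001-69510000 (15 and 15). The Nr2f1 pairs joined its gene-body bin to chr13:77860001-77870000 (26 and 17) and its start bin to chr13:78440001-78450000 (20 and 19). Among all bin pairs the balance ran the other way, with 8910 such pairs at E16.5 and 1074 at E12.5. Apart from chr13:78440001-78450000, each of these partner bins lay in a region that was also listed in at least 1 library of the other stage.

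The authors assigned each interaction to a cluster of a type they name broad, sharp or singleton, by a rule that is not stated. For Nr2f2, 0 and 0 interactions were of the broad type at E16.5, against 26 and 31 at E12.5, and 29 and 12 were sharp at E16.5, against 3 and 2 at E12.5. Nr2f1 had 9 and 8 of the broad type at E16.5, against 20 and 10 at E12.5, and Nr2e1 0 and 0 against 0 and 3. In whole libraries the broad type made up 15.8% and 18.9% of interactions at E16.5, against 25.1% and 25.2% at E12.5. The type is a property of the whole cluster, so the Nr2f2 values rest on 7 and 6 clusters at E16.5 and 7 and 9 at E12.5.

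The protein-coding genes that held partner bins had interactions of their own. Fam172a, whose body reaches close to Nr2f1, had 44 and 33 at E16.5, against 34 and 36 at E12.5 (log2 change -0.70, adjusted p = 0.0559), and 15 and 12 of them at E16.5 and 15 and 15 at E12.5 were with Nr2f1. Afg1l had 19 and 16 at E16.5, against 12 and 12 at E12.5 (adjusted p = 0.668), of which 10 and 8, against 6 and 8, were with Nr2e1. The gene 2210408I21Rik had 16 and 10 at E16.5, against 10 and 11 at E12.5 (adjusted p = 0.446). No start of a protein-coding gene and no annotated miRNA lay in a partner bin of the 3 genes.

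Other nuclear receptors, cofactors and genes of related forebrain processes were counted in the same edgeR test of interaction number. Of 34 other nuclear receptors 8 could be tested, and 1 was called higher and 0 lower, where 11.0% and 3.49% of all genes were, with a median log2 change of 0.16 against 0.25 for all genes. The called one was Nr4a3, an activity-induced orphan receptor, with 45 and 53 interactions at E16.5 against 7 and 3 at E12.5 (log2 change 2.43, adjusted p = 0.000867). Of 16 cofactors 7 could be tested, with 1 called higher and 1 lower, against 11.0% and 3.49% of all genes, and a median of 0.06 against 0.25. The one called higher was Zfpm2 (FOG2), a zinc-finger cofactor that binds COUP-TFs, with 22 and 15 at E16.5 against 0 and 0 listed at E12.5. It passed the filter on the sum over libraries only through the E16.5 libraries. Its call therefore does not measure the size of a change. Bcl11a, a zinc-finger repressor that interacts with COUP-TFs, had 65 and 78 at E16.5 against 58 and 62 at E12.5, which is a lower share (log2 change -0.59, adjusted p = 0.0284).

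Genes of cortical area patterning included 15 tested of 18, of which 6 were called lower and 1 higher, against 3.49% and 11.0% of all genes, with a median log2 change of -1.004 against 0.25. Emx2, a homeobox gene of caudal cortical progenitors, had 65 and 70 interactions at E16.5 against 85 and 99 at E12.5 (log2 change -1.29, adjusted p = 0.000320). Pax6, a homeobox gene of rostral cortical progenitors, had 24 and 14 at E16.5 against 41 and 34 at E12.5 (log2 change -1.82, adjusted p = 0.000927). Lhx2, Dmrta2, Sp8 and Gli3 were also called lower, with log2 changes of -1.08, -2.02, -1.41 and -1.09. Tbr1, a transcription factor of early-born cortical neurons, went against them with 43 and 36 at E16.5 against 5 and 5 at E12.5 (log2 change 2.12, adjusted p = 0.00158). Among neural stem cell partners of Nr2e1, Pax6, Sox2, Hes1 and Ccnd1 were called lower. Sox2, a stem cell factor, had 63 and 49 at E16.5 against 59 and 61 at E12.5 (log2 change -0.94, adjusted p = 0.00479). Hes1, a Notch target that holds progenitors undifferentiated, had 26 and 25 at E16.5 against 31 and 33 at E12.5 (log2 change -1.17, adjusted p = 0.00534). Ccnd1, a cyclin of the G1 phase, had 9 and 8 at E16.5 against 14 and 16 at E12.5 (log2 change -1.65, adjusted p = 0.00581). Of 15 genes of the caudal ganglionic eminence and interneurons 12 could be tested, and 2 were called lower, Sp8 and Dlx2, against 3.49% of all genes, with a median of -0.03 against 0.25. Dlx2, a homeobox gene of interneuron progenitors, had 16 and 12 at E16.5 against 19 and 17 at E12.5 (log2 change -1.20, adjusted p = 0.0180).

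The genes with interaction numbers most like those of each receptor were found by Euclidean distance of log2 CPM (numbers scaled to the TMM-adjusted library total) over the 4 libraries. Tbc1d16 was nearest to Nr2f1 (distance 0.0483), with 26 and 21 at E16.5 and 26 and 29 at E12.5, followed by Lhx1 (0.346) and Hoxd3 (0.347). Nearest to Nr2f2 were Clybl (0.500), Pax6 (0.546) and Hoxd3 (0.560), all at larger distances than for the other receptors. Nearest to Nr2e1 were Ankrd40 (0.127), Prdm12 (0.159) and Hnrnpll (0.180).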

How the data were processed

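Per the labels' protocols, frozen forebrain was crosslinked, digested with MboI, proximity-ligated and enriched with an H3K4me3 antibody. The submitters' processing notes name BWA, SAMtools and mm10; no version and no interaction caller is given in the sources used here. The deposited files, per the file headers, give for pairs of 10 kb bins in one library a read-pair count, an expected count, an FDR (a q-value), and a cluster's label, size, type, −log10 p and summit. All listed pairs lay on 19 autosomes, 20 to 1000 kb apart, with FDR under 0.01 and observed at least 2 times expected.

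Genes and starts came from RefSeq tables of GRCm38.p6, which give no exons, so exonic and intronic partner bins could not be separated. The members and lists were chosen with earlier results of these data known. Interaction number (4036 of 20665 autosomal protein-coding genes, summing to at least 10 over the libraries) and read pairs (6875 pairs listed in all 4 libraries) were tested with edgeR 4.0.16 in R 4.3.3 (TMM, robust quasi-likelihood, stage alone, Benjamini-Hochberg at 0.05); the SE derives from the F statistic. The edgeR fits of number and of read pairs were tested on simulated counts, drawn independently for each gene or bin pair. Such counts do not cover the dependence between neighbouring bin pairs in the real data. Distances used exact permutation.

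Named were the 3 genes; per gene, contacts past the threshold, the 3 with the highest mean count, stage-restricted pairs and protein-coding genes over partner bins; list members past the threshold, up to 6 by smallest p (1 member of the neural stem cell list is not reported here, and that list is given without its counts); and the 3 most alike genes over 2 Mb away or on other chromosomes. The Foxo3 and Snx3 contacts, cluster types and Gm genes were picked after their values were seen. Alternatives were the library total, DESeq2 1.42.0, the expected count as offset, other filters, lists of equal length, a stricter FDR, gene-end or gene-start bins, clusters counted once, read pairs per gene, a quasi-dispersion of at least 1, distance bins, a block for the replicate number and leaving out each library. Replicates differed beyond counting noise (chi-square 1.74 times its degrees of freedom at E16.5 and 1.30 times at E12.5 over contacts averaging at least 40 read pairs).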

Additional observations from a re-analysis of the deposited data

How the results depend on the processing

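Direction held for the interaction number of Nr2f1, Nr2f2 and Nr2e1 under every alternative run; Nr2e1 could not be tested with clusters counted once. The Nr2f1 log2 change did not pass with DESeq2 (-1.005), lists of equal length (-0.85), gene-start bins (-0.97, chosen after seeing the data), clusters counted once (-0.74) or summed read pairs (-1.10), and ranged from -1.25 to -0.88 with each library left out. The Nr2f2 change did not pass with DESeq2 (-1.40), gene-start bins (-1.25), clusters (-0.94) or read pairs (-2.04), and ranged from -2.09 to -0.99. Nr2e1 ranged from -0.74 to -0.37. Replicate numbers did not pair the libraries (correlations of deviations 0.0889 for number and 0.128 for read pairs, 2 pairs); with the replicate block the changes were -1.04, -1.43 and -0.54 (adjusted p = 0.0327, 0.0345 and 0.429, edgeR), and 249 genes were called higher. Genes called higher, 443 in all, numbered 78 with DESeq2, 171 with equal lists, 145 at an FDR under 0.0001, 93 with gene-start bins, and 0 with clusters (146 at an unadjusted p under 0.05, edgeR) and with read pairs (596), and 0 to 275 with a library left out. Genes called lower, 141, numbered 212 with library totals, 27 with DESeq2, 91 with equal lists, 80 at the stricter FDR, 33 with gene-start bins, 0 with clusters (35 unadjusted) and with read pairs (397), and 0 to 115 with a library left out, the 0 being without E12.5 replicate 1 in both directions (579 higher and 168 lower unadjusted). With library totals 67.2% of calls were higher, against 75.9% with TMM. Contacts called higher, 404, numbered 59 with DESeq2, 18 with the expected count as offset and 132 to 317 with a library left out; those called lower, 315, numbered 39, 0 (122 unadjusted) and 142 to 220.

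The median distance difference, E16.5 minus E12.5, was -7.5 kb for Nr2f1 with equal lists and at the stricter FDR and -5 kb weighted by read pairs, in place of 0, and -2.5 to 2.5 kb with a library left out. For Nr2f2 it was 147.5 kb with equal lists, 225 kb weighted by read pairs and 160 kb at the stricter FDR, in place of 105. With a library left out it was 0 to 210 kb for Nr2f2. For Nr2e1 it was 172.5 kb weighted by read pairs, in place of 2.5. Pairs shared by both stages fell to 15 for Nr2f1 and 11 for Nr2f2 with equal lists. The 50 kb contact of Nr2e1 passed in 9 of 10 alternatives, all but the offset. The other 7 called contacts passed in 4 to 7 of 10, none of them with DESeq2 or the offset. With the offset, the sign turned for 12 of the 29 contacts, and among those named for Nr2f2 at 860 kb (0.021), Nr2f1 at 300 kb (0.042), its gene-body bin at 290 kb (0.070) and start bin at 210 kb (0.0079), and Nr2e1 at 250 kb (0.019) and 280 kb (0.30). With a library left out, sign turned for these Nr2f1 contacts, in ranges of -0.47 to 0.024, -0.58 to 0.20 and -0.43 to 0.018. The cause was not tested. With 2 libraries a stage and unknown depth, unlisted pairs carry no value, and strength describes only pairs past the threshold in every library.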
